A study of Mus musculus with 7 samples.

Results

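Fc gamma receptors are the proteins by which macrophages and microglia bind the constant part of IgG antibodies. The 7 genes described here are the 4 mouse Fc gamma receptors (Fcgr1, Fcgr3, Fcgr4 and Fcgr2b), the signalling chain that the activating receptors share (Fcer1g), the kinase that this chain recruits (Syk) and a phosphatase that the inhibitory receptor recruits (Inpp5d). They were taken from the deposited expression table by gene symbol, by a rule that used no measured values, and all 7 had 1 row each among its 24537 genes. Earlier results of these data were known when they were chosen.

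The microglia came from glioma-bearing C57BL/6 mice with the 005 tumour, a transplanted mouse model of glioblastoma, and were sorted at day 35 by an intermediate level of CD45 and by CX3CR1, the fractalkine receptor. Of the 7 libraries, 3 were from mice whose CD4 cells were depleted and that also received anti-CTLA4, an antibody to an inhibitory receptor of T cells, 2 were labelled as from mice that received anti-CTLA4 without depletion, and 2 were from mice given IgG. By their labels, all groups shared the strain, the glioma and the sort. For the libraries labelled anti-CTLA4 the genotype rests on that label, because their column names raise a doubt that is given below. The animals' age and sex, the antibody clones and isotypes, and whether replicates were separate animals or pools are not stated in the sources used, so a p-value here reflects library-to-library spread alone, and that spread may be technical.

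An activating Fc gamma receptor that is clustered by antibody-coated material has tyrosines in its associated signalling chain phosphorylated by Src family kinases, and the kinase Syk docks there and starts phagocytosis, oxidant release and cytokine production. The inhibitory receptor Fcgr2b carries a tyrosine motif of the opposite kind in its own tail, which brings in the lipid phosphatase SHIP1, the product of Inpp5d, and dampens the same cascade. Microglia are known to carry these receptors, and therapeutic antibodies of some isotypes engage them on myeloid cells.

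The coding stretches that set the activating and the inhibitory arms apart are shown first, as reference sequence from GENCODE M21 transcripts matched by RefSeq accession, with the codons of the signalling tyrosines in capitals. The stretch of Fcer1g runs over codons 65 to 79 of 86 and holds a pair of tyrosine codons, the activating motif to which Syk binds. The stretch of Fcgr2b runs over codons 270 to 275 of 293 and holds 1 tyrosine codon, the inhibitory motif.
Fcer1g: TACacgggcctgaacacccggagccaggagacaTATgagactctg
Fcgr2b: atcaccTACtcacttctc

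To describe what the genes share upstream, promoter sequence is shown for the 4 members whose upstream bases held the core of the binding motif of PU.1, the transcription factor of the myeloid lineage. Fcgr2b and Fcer1g, whose profiles across the libraries were close to those of Fcgr4 and Fcgr3, did not hold it, and no relation between these letters and the measured levels was tested. The search covered the 250 bases before the start of each gene on both strands, in the RefSeq table of build GRCm38.p6, where all 7 genes were matched at the deposited start. The letters searched were GAGGAA for the PU.1 core and, for the core of an interferon-stimulated response element, GAAA, then 2 bases of any kind, then GAAA. The motifs did not overlap in any member. The capitals mark matches, and the bases run 5′ to 3′ on the gene's strand and end at the last base before the start. Fcgr4 (chr1:171018776-171018925, plus strand) is shown over 150 bases, and Fcgr1 (chr3:96293970-96294029, minus strand), Fcgr3 (chr1:171059404-171059463, minus strand) and Inpp5d (chr1:87620252-87620311, plus strand) over 60 bases.
Fcgr4: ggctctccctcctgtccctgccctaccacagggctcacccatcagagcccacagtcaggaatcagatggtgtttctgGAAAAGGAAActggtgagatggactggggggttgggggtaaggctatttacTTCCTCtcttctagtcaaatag
Fcgr1: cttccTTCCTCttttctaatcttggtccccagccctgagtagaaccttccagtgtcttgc
Fcgr3: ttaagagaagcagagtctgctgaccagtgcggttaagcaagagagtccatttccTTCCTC
Inpp5d: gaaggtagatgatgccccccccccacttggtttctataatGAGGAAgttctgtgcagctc
The PU.1 core began 55 bases before the start in Fcgr1, 22 in Fcgr4, 6 in Fcgr3 and 20 in Inpp5d, and it read GAGGAA on the printed strand in Inpp5d and as its reverse complement in the other 3. The interferon response core was found in Fcgr4, 73 bases before the start. Fcgr2b, Fcer1g and Syk held neither motif in the window. Over 27025 promoters of the same length, 23.1% held GAGGAA and 3.0% the interferon response core. These matches are descriptions of letters and not of bound sites.

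In the mm10 build, 4 members lay in 1 cluster on chromosome 1, where Fcgr2b occupied chr1:170960559-170976071 on the minus strand, Fcgr4 chr1:171018926-171029761 on the plus strand, Fcgr3 chr1:171051169-171059403 on the minus strand and Fcer1g chr1:171229572-171234349 on the minus strand. Inpp5d lay elsewhere on the same chromosome, at chr1:87620312-87720510 on the plus strand. Fcgr1 lay at chr3:96282909-96293969 on the minus strand and Syk at chr13:52583437-52648792 on the plus strand. The values cover all exons of each gene, and reads on either strand were counted together. Among the annotated exons on either strand, those of Gm38204, on the plus strand, overlapped those of Fcgr2b, and no other member had an exon overlap. The transcripts of Fcgr2b and Fcgr3 share sequence: 166 of 1413 windows of 50 bases in Fcgr2b (11.7%) were also in Fcgr3, and the same 166 made up 12.8% of the 1298 windows of Fcgr3, so reads from those stretches could be assigned to either gene. No window of that length was shared among the other receptor transcripts or with Fcer1g.

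Depth was not the limit for these genes. FPKM is the number of fragments per unit of transcript length and of mapped reads, and the deposited values implied 84200000 to 107600000 reads per library, and the lowest number of reads implied behind any value of a member was 1109, for Fcgr4 in the second CD4 depletion + anti-CTLA4 library. The defining microglial markers P2ry12, Tmem119 and Cx3cr1 were high in every library, with no value under 147.1 FPKM, and the defining markers of T cells and natural killer cells stayed near 0 in all 7. The libraries differed in other respects that touch the results. The names of the anti-CTLA4 columns carry other sample-sheet numbers than the descriptions of the samples, and the command recorded in the table's header assigns those numbers to libraries named for an interferon-gamma receptor knockout, so they are called here the libraries labelled anti-CTLA4, and each direction drawn from them rests on that label. Ifngr1, a subunit of that receptor, stood at 204.1 and 271.0 FPKM in them, against 106.8 and 142.8 FPKM in the IgG libraries. These values cover all exons of the gene together, so they cannot settle the genotype. The Y-linked gene Eif2s3y was at 4.34 to 6.86 FPKM in the CD4 depletion + anti-CTLA4 libraries, at 0.335 and 1.06 FPKM in those labelled anti-CTLA4 and at 0.896 and 0.947 FPKM in the IgG libraries, and the labels give no sex. Xist, the transcript of the inactive X chromosome, was at 2.42 to 3.42 FPKM in the CD4 depletion + anti-CTLA4 libraries. It was at 3.85 and 6.08 FPKM in those labelled anti-CTLA4 and at 2.16 and 2.48 FPKM in the IgG libraries. These genes thus do not sort the groups by sex. The first CD4 depletion + anti-CTLA4 library stood apart: its summed FPKM over 10 monocyte and recruited macrophage markers was 1385, against 39.6 and 53.8 in the other 2 libraries of its group, and its sum over 10 microglial markers was 3085, against 5174 and 4826. Its sum over 7 border-associated macrophage markers was 174.8, against 11.34 and 24.95. The monocyte and recruited macrophage sum also differed within the IgG group, at 26.45 in the first library and 139.1 in the second. Arg1 stood at 2.15 and 86.4 FPKM in these libraries and Chil3 at 0.109 and 12.2 FPKM. The defining markers Ly6c2, at 0.447 and 0.553 FPKM, and Ccr2, at 1.02 and 2.24 FPKM, stayed low in both.

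By length-adjusted level the members spanned a wide range, with the same genes at the top and the bottom in all 7 libraries. Fcer1g was the most abundant, at 322.1 to 1049 FPKM, followed in every library by Fcgr3 at 261.8 to 712.0 FPKM and Fcgr2b at 62.4 to 243.3 FPKM. Syk was the least abundant in every library, at 7.27 to 18.5 FPKM. Fcgr1, Fcgr4 and Inpp5d lay in between, and their order changed from library to library. Among the 13028 genes that passed the filter on low values, Fcer1g ranked between percentiles 99.5 and 99.9 of a library and Syk between percentiles 48.7 and 80.1.

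Among the activating receptors, Fcgr1, the receptor with high affinity for IgG, had 60.1, 33.2 and 34.2 FPKM in the CD4 depletion + anti-CTLA4 libraries, 96.1 and 89.2 FPKM in those labelled anti-CTLA4 and 29.5 and 37.7 FPKM in the IgG libraries. Both libraries labelled anti-CTLA4 were above all others, and the remaining groups overlapped. Fcgr3, a low-affinity receptor and the most abundant of the 4, had 489.0, 262.9 and 317.0 FPKM in the CD4 depletion + anti-CTLA4 libraries, 712.0 and 638.1 FPKM in those labelled anti-CTLA4 and 261.8 and 288.1 FPKM in the IgG libraries. The same arrangement held, with the first CD4 depletion + anti-CTLA4 library next below them. Fcgr4, which binds mouse IgG2a and IgG2b, had 67.1, 10.2 and 29.05 FPKM in the CD4 depletion + anti-CTLA4 libraries, 87.1 and 50.5 FPKM in those labelled anti-CTLA4 and 10.6 and 33.5 FPKM in the IgG libraries. It was the most variable member within groups: its highest library exceeded its lowest 6.6-fold within the CD4 depletion + anti-CTLA4 group and 3.16-fold within the IgG group.

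The inhibitory receptor Fcgr2b had 206.7, 62.4 and 98.8 FPKM in the CD4 depletion + anti-CTLA4 libraries, 243.3 and 173.5 FPKM in those labelled anti-CTLA4 and 66.2 and 111.5 FPKM in the IgG libraries. As for Fcgr4, the first CD4 depletion + anti-CTLA4 library lay between the 2 labelled anti-CTLA4. The shared chain Fcer1g, without which the activating receptors are not held at the cell surface, had 747.2, 331.0 and 463.8 FPKM in the CD4 depletion + anti-CTLA4 libraries, 1049 and 816.1 FPKM in those labelled anti-CTLA4 and 322.1 and 421.8 FPKM in the IgG libraries. Here both libraries labelled anti-CTLA4 were the highest of the 7.

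Downstream, Syk had 13.6, 8.87 and 7.99 FPKM in the CD4 depletion + anti-CTLA4 libraries, 12.2 and 18.5 FPKM in those labelled anti-CTLA4 and 8.90 and 7.27 FPKM in the IgG libraries. The first CD4 depletion + anti-CTLA4 library exceeded the first of those labelled anti-CTLA4. Inpp5d had 50.8, 53.4 and 49.6 FPKM in the CD4 depletion + anti-CTLA4 libraries, 73.9 and 117.2 FPKM in those labelled anti-CTLA4 and 45.1 and 44.4 FPKM in the IgG libraries. Its 3 groups did not overlap at all, and it was the 1 member in which the first CD4 depletion + anti-CTLA4 library was not the highest of its group.

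**Figure D1:**
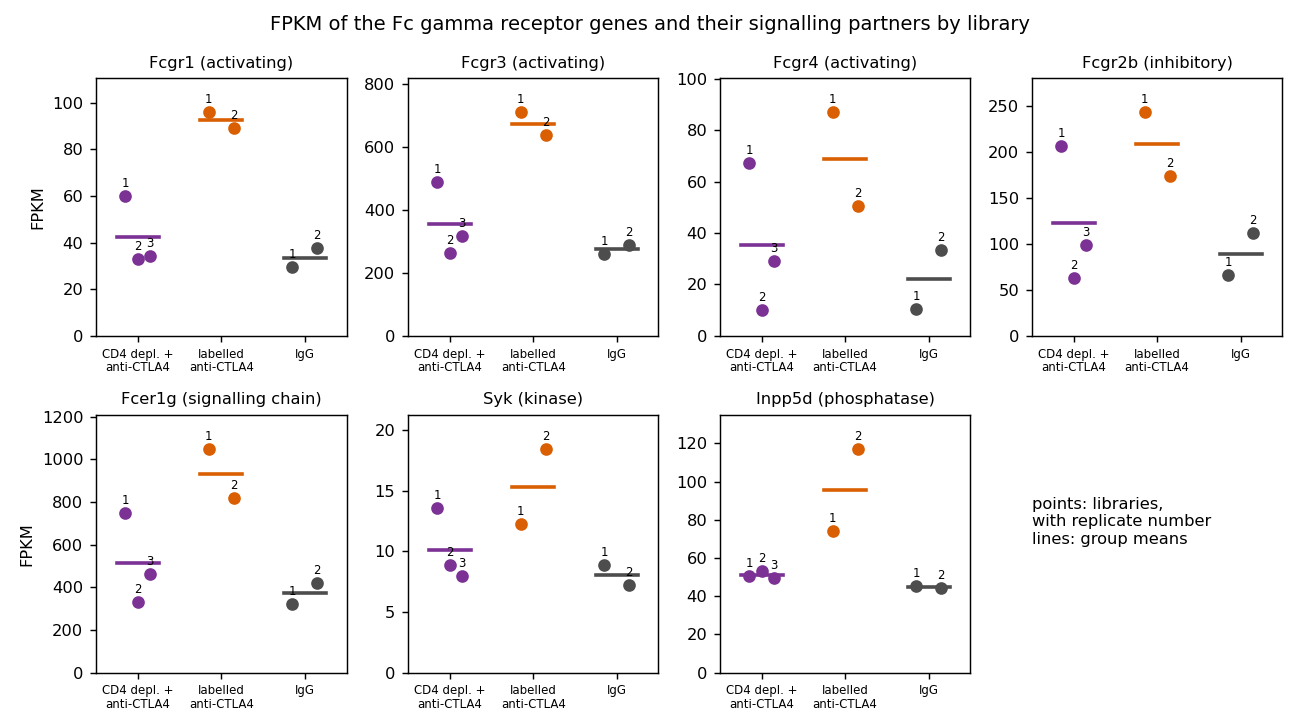
FPKM (vertical axes, each from 0) of the 7 members in the 3 groups (horizontal axis), with 1 point per library labelled by its replicate number and a line at each group's mean. The 2 libraries labelled anti-CTLA4 lie above both IgG libraries for every member, and the first CD4 depletion + anti-CTLA4 library is the highest of its group for all members but Inpp5d.

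The first comparison, of anti-CTLA4 with IgG, asks what checkpoint treatment does to microglia in the glioma-bearing brain. All 7 members were higher in both libraries labelled anti-CTLA4 than in both IgG libraries, and 4 of the 7, Fcgr1, Fcgr3, Fcer1g and Inpp5d, passed the threshold. The differences were tested with limma on log2(FPKM + 1), over 13028 genes with a spread shared by all 7 libraries, and called at an adjusted p under 0.05. Of all genes tested, 9.29% were called higher and 28.8% lower, and 22.8% were higher without overlap. The median log2 fold change of the members was 1.29, and that of all genes tested was -0.31.

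Fcgr1 averaged 92.6 ± 4.88 FPKM in the libraries labelled anti-CTLA4 and 33.6 ± 5.78 FPKM in the IgG libraries (SD, n = 2 each), which gives 1.44 ± 0.30 (SE) on the log2 scale with an adjusted p of 0.0128 in limma. Fcgr3 averaged 675.0 ± 52.3 FPKM in the libraries labelled anti-CTLA4 and 274.9 ± 18.6 FPKM in the IgG libraries, which gives 1.29 ± 0.31 (SE) on the log2 scale with an adjusted p of 0.0191 in limma. The shared chain changed by a similar amount, since Fcer1g averaged 932.7 ± 165 FPKM in the libraries labelled anti-CTLA4 and 372.0 ± 70.6 FPKM in the IgG libraries, which gives 1.33 ± 0.39 (SE) on the log2 scale with an adjusted p of 0.0352 in limma. On the inhibitory side, Inpp5d averaged 95.6 ± 30.6 FPKM in the libraries labelled anti-CTLA4 and 44.8 ± 0.503 FPKM in the IgG libraries, which gives 1.04 ± 0.22 (SE) on the log2 scale with an adjusted p of 0.0139 in limma. The 3 members that did not pass were Fcgr2b with a log2 fold change of 1.25 ± 0.53 (limma adjusted p = 0.0969), Fcgr4 with 1.75 ± 0.83 (limma adjusted p = 0.129) and Syk with 0.83 ± 0.29 (limma adjusted p = 0.0559). Fcgr4 thus had the largest difference of the 7 and the largest error.

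Marker genes of several cell types differed between the same libraries. The summed FPKM of the 10 microglial markers was 7123 and 10570 in the libraries labelled anti-CTLA4, against 3754 and 4655 in the IgG libraries, and 3 of the 10 were called higher. The sum over 10 markers of oligodendrocyte precursor-like and tumour cells was 36.4 and 94.9 in the libraries labelled anti-CTLA4, against 665.2 and 939.3 in the IgG libraries, with 9 of the 10 called lower. The sum over 7 erythroid markers was 980.4 and 938.6 in the libraries labelled anti-CTLA4, against 328.0 and 47.4 in the IgG libraries. In the same order of groups, the neutrophil sum was 99.08 and 182.5 against 40.95 and 37.16. The border-associated macrophage sum was 40.71 and 17.98 against 5.969 and 16.47. The B cell sum was 21.9 and 24.36 against 7.444 and 8.627. The dendritic cell sum was 29.06 and 22.38 against 12.04 and 11.84. The monocyte and recruited macrophage sum overlapped, at 75.63 and 33.91 against 26.45 and 139.1. The mast cell sum was lower, at 9.031 and 4.119 against 12.94 and 11.67. The part of these cell types in the members' differences was not tested. In a bulk sample, fewer cells of a type and less RNA of each such cell cannot be told apart. When every library was rescaled to its microglial markers, the members' log2 fold changes ran between -0.06 for Syk and 0.81 for Fcgr4, with a median of 0.33, and 0 of 7 were called by limma, or had an unadjusted p under 0.05, while the median of all genes tested was -1.02, 0.508% of them were called higher and 47.6% lower. With 1 library of the comparison left out, the log2 fold changes ran from 1.27 to 1.62 for Fcgr1, 1.21 to 1.37 for Fcgr3, 1.13 to 1.52 for Fcer1g and 0.71 to 1.37 for Inpp5d, while the number of calls fell. Without the second library labelled anti-CTLA4 or without the first IgG library, limma called 0 of 7 members and also 0 of all genes tested, and 4 members had an unadjusted p under 0.05 each time. Without the second IgG library it called 0 of 7, with 6 at an unadjusted p under 0.05 and 1.85% of all genes called higher, and without the first library labelled anti-CTLA4 it called Fcgr1 and Inpp5d, beside 6.2% of all genes.

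The second comparison, of CD4 depletion + anti-CTLA4 with anti-CTLA4, asks whether the state of the microglia under anti-CTLA4 needs CD4 cells. All 7 members had lower means in the CD4 depletion + anti-CTLA4 libraries, and 3 of the 7, Fcgr1, Fcgr3 and Inpp5d, were called lower. Of all 13028 genes, 6.59% were called lower and 22.8% higher. For 4 members, Fcgr1, Fcgr3, Fcer1g and Inpp5d, the groups did not overlap, against 15.7% of all genes that were lower without overlap. The members' median log2 fold change was -0.93, against 0.27 for all genes tested. Both comparisons use the libraries labelled anti-CTLA4, so the second is not independent of the first.

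Fcgr1 averaged 42.5 ± 15.3 FPKM in the CD4 depletion + anti-CTLA4 libraries (SD, n = 3) and 92.6 ± 4.88 FPKM in those labelled anti-CTLA4 (SD, n = 2), which gives -1.16 ± 0.27 (SE) on the log2 scale with an adjusted p of 0.0225 in limma. Fcgr3 averaged 356.3 ± 118 FPKM in the CD4 depletion + anti-CTLA4 libraries and 675.0 ± 52.3 FPKM in those labelled anti-CTLA4, which gives -0.97 ± 0.28 (SE) on the log2 scale with an adjusted p of 0.0404 in limma. Inpp5d averaged 51.3 ± 1.93 FPKM in the CD4 depletion + anti-CTLA4 libraries and 95.6 ± 30.6 FPKM in those labelled anti-CTLA4, which gives -0.85 ± 0.20 (SE) on the log2 scale with an adjusted p of 0.0235 in limma. Its spread was small where CD4 cells were depleted and large in the libraries labelled anti-CTLA4, the reverse of the pattern of Fcgr1. The members not called were Fcer1g with a log2 fold change of -0.93 ± 0.36 (limma adjusted p = 0.0868), Fcgr2b with -0.92 ± 0.48 (limma adjusted p = 0.177), Fcgr4 with -1.25 ± 0.76 (limma adjusted p = 0.235) and Syk with -0.56 ± 0.26 (limma adjusted p = 0.138).

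Markers of other cell types differed between these groups as well. The sum over the 10 markers of oligodendrocyte precursor-like and tumour cells was 165.6, 573.5 and 412.9 FPKM in the CD4 depletion + anti-CTLA4 libraries, against 94.9 and 36.4 FPKM in those labelled anti-CTLA4, with 7 of the 10 called higher. The sum over the 10 microglial markers was 3085, 5174 and 4826 FPKM in the CD4 depletion + anti-CTLA4 libraries, against 7123 and 10570 FPKM in those labelled anti-CTLA4, with 3 of the 10 called lower. The number of members called changed when any library of this comparison was left out. Without the first CD4 depletion + anti-CTLA4 library, in which Chil3 and Arg1, genes of recruited and alternatively activated macrophages, stood at 486.8 and 423.1 FPKM and the classical monocyte genes Ly6c2 and Ccr2 at 35.0 and 43.1 FPKM, all 7 members were called lower, with a median log2 fold change of -1.24, beside 9% of all genes tested. In the other 2 libraries of the group Chil3 stood at 0.419 and 2.48 FPKM and Arg1 at 2.59 and 17.4 FPKM. The neutrophil marker sum was 546.8 FPKM in the first library, against 56.2 and 88.4 FPKM, with S100a8 at 226.8 and S100a9 at 203.2 FPKM there. Retnlg, Cxcr2 and Mmp9 were also highest in it, but the list did not move as a whole. Csf3r stood at 38.6, 36.0 and 40.6 FPKM in the group's libraries and Ngp at 4.23, 0.988 and 6.14 FPKM. The neutrophil surface gene Ly6g did not exceed 0.27 FPKM in any library. The part of any of these cell types in the members' values was not tested. Without the second library of the group, without the third, or without the second library labelled anti-CTLA4, limma called 0 of 7 members and 3 had an unadjusted p under 0.05 each time, beside 3.16%, 2.03% and 0% of all genes called lower. The log2 fold change of Fcgr1 was then -1.01, -1.03 and -1.21, that of Fcgr3 -0.77, -0.91 and -1.05, and that of Inpp5d -0.88, -0.83 and -0.52. Without the first library labelled anti-CTLA4, Inpp5d alone was called, beside 4.39% of all genes. After rescaling to the microglial markers 0 of 7 were called by limma, 0 had an unadjusted p under 0.05, and the members' median was 0.09 with all genes tested at 1.02, of which 0.63% were called lower and 55.6% higher.

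The third comparison sets CD4 depletion + anti-CTLA4 against IgG. None of the 7 members was called by limma, none had an unadjusted p under 0.05, and their log2 fold changes ran between 0.19 for Inpp5d and 0.51 for Fcgr4, with adjusted p-values of 0.765 to 0.858. Of all 13028 genes 0% were called and 851, or 6.53%, had an unadjusted p under 0.05. Inpp5d alone was higher without overlap, at 51.3 ± 1.93 FPKM in the CD4 depletion + anti-CTLA4 libraries (SD, n = 3) and 44.8 ± 0.503 FPKM in the IgG libraries (SD, n = 2), and 11% of all genes were. The errors leave room for sizeable differences, since the SE of the log2 fold change was 0.20 for Inpp5d, 0.27 for Fcgr1 and 0.76 for Fcgr4. Without the first CD4 depletion + anti-CTLA4 library the members' median log2 fold change was 0.06, against 0.33 with it, and Fcgr2b and Fcgr4 turned to -0.13 and -0.13.

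**Figure D2:**
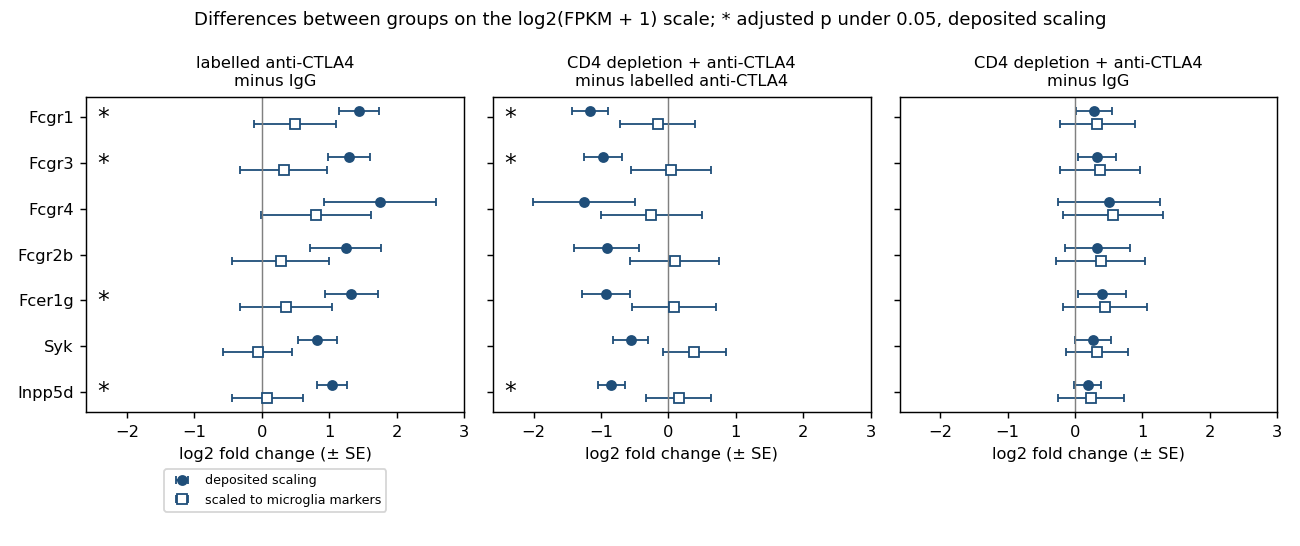
Log2 fold changes of the 7 members (vertical axis) in the 3 comparisons (panels), with bars of 1 SE; filled circles are on the deposited scaling and open squares after rescaling each library to the microglial markers, and an asterisk marks an adjusted p under 0.05 on the deposited scaling. The circles of the first panel lie between 0.83 and 1.75 and those of the second between -1.25 and -0.56, while the squares of both panels lie nearer 0.

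The balance of activating and inhibitory receptors was examined within each library, where a common factor on all receptors cancels. Fcgr3 made up 59.4% to 71.3% of the summed FPKM of the 4 receptors, Fcgr2b 16.9% to 25.1%, Fcgr1 7.13% to 9.37% and Fcgr4 2.76% to 8.16%. That sum was 822.9, 368.7 and 479.1 FPKM in the CD4 depletion + anti-CTLA4 libraries, 1139 and 951.3 FPKM in those labelled anti-CTLA4 and 368.1 and 470.8 FPKM in the IgG libraries. The share of the inhibitory receptor Fcgr2b was 25.1%, 16.9% and 20.6% in the CD4 depletion + anti-CTLA4 libraries, 21.4% and 18.2% in those labelled anti-CTLA4 and 18.0% and 23.7% in the IgG libraries, so all 3 groups overlapped. Between the libraries labelled anti-CTLA4 and IgG, the log2 ratio to Fcgr2b differed by 0.20 for Fcgr1 and by 0.05 for Fcgr3, against SDs within groups of 0.28 and 0.34. The difference for Fcgr4 was 0.51 with an SD of 0.44, and its share overlapped between these groups. Between CD4 depletion + anti-CTLA4 and the libraries labelled anti-CTLA4, the differences of -0.25 for Fcgr1, -0.05 for Fcgr3 and -0.33 for Fcgr4 were smaller than the SDs of 0.37, 0.33 and 0.37. A shift of the balance between activating and inhibitory receptors was therefore not resolved with these numbers of libraries. The FPKM of Fcer1g divided by the sum of Fcgr1, Fcgr3 and Fcgr4 stayed between 1.05 and 1.22 in all 7 libraries. The ratio of Inpp5d to Syk was 3.74 in the first CD4 depletion + anti-CTLA4 library and 5.07 to 6.34 in the other 6.

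**Figure D3:**
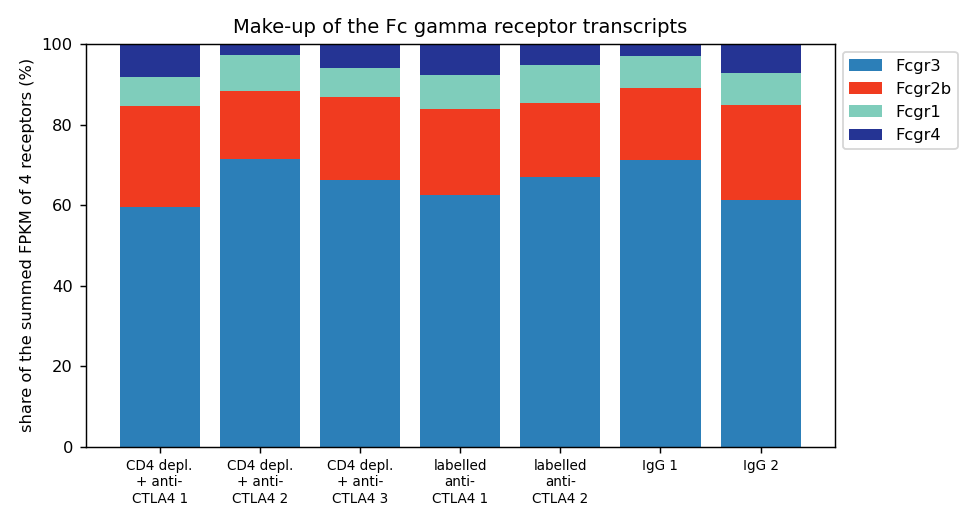
Share of the summed FPKM of Fcgr3, Fcgr2b, Fcgr1 and Fcgr4 (vertical axis, percent, stacked to 100) in each of the 7 libraries (horizontal axis). Fcgr3 takes 59.4% to 71.3% in every library, and the shares of Fcgr2b and Fcgr4 vary as much within groups as between them.

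Across the 7 libraries the members formed pairs with like profiles. Fcgr2b and Fcgr4 ordered the libraries identically, with a Pearson correlation of their log2 values of 0.985, and so did Fcgr3 and Fcer1g, with 0.983. Fcgr1 and Fcgr3 had a correlation of 0.989. Inpp5d was least like Fcgr4, at 0.474, and was highest in the second library labelled anti-CTLA4, whereas Fcgr1, Fcgr3, Fcgr4, Fcgr2b and Fcer1g were highest in the first. Syk shared with Inpp5d its maximum in the second library labelled anti-CTLA4, at a correlation of 0.85, and this was the library with the highest microglial marker sum. These correlations are descriptions over 7 libraries in 3 groups, and all of them share the libraries' scaling.

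**Figure D4:**
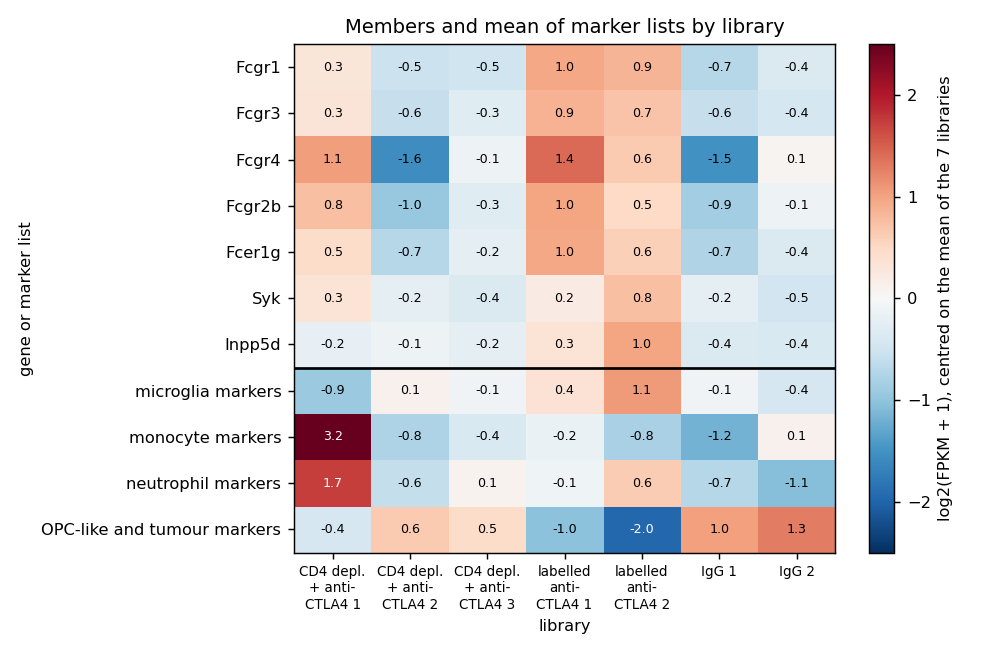
Log2(FPKM + 1) of each member, and the mean over the genes of 4 marker lists, centred on the mean of the 7 libraries (colour and printed numbers; libraries on the horizontal axis). In the first CD4 depletion + anti-CTLA4 library Fcgr4 stands at 1.05 and the monocyte markers at 3.19 while Inpp5d stands at -0.20 and the microglial markers at -0.92.

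Among 7689 other genes with a mean of at least 5 FPKM, likeness was measured as the root mean square difference between centred log2(FPKM + 1) profiles over the 7 libraries, where a low value means a like pattern. The nearest genes were Vamp8 at 0.093, Trex1 and Cd48 for Fcgr1, and Xlr at 0.073, Hacd4 and Fyb for Fcgr3. For Fcgr4 they were Cybb at 0.231, Cd52 and Ifi27l2a, and for Fcgr2b they were Naaa at 0.115, Ctsc and Oas1a. For Fcer1g they were Cyba at 0.079, Trim30a and Ctsc, for Syk they were Elf4 at 0.097, Il17ra and Rassf2, and for Inpp5d they were Lpxn at 0.065, Nckap1l and Mylip. Over all candidates the median difference was 0.587 for Syk, the lowest of the members, and 1.21 for Fcgr4, the highest.

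The other genes between Fcgr2b and Fcer1g on chromosome 1 had mixed directions, and none was called in the direction of the members. With 5 tested, this cannot be told apart from the shares of all genes given below. The interval spans 273.8 kb and holds 8 other genes of the table, of which 5 were tested. In the libraries labelled anti-CTLA4 against IgG, 3 of the 5 were called lower and 0 higher, beside 28.8% and 9.29% of all genes. The 3 were Sdhc, a subunit of succinate dehydrogenase, at a log2 fold change of -0.90 (limma adjusted p = 0.0169), Tomm40l at -0.96 (limma adjusted p = 0.0235) and Apoa2 at -0.82 (limma adjusted p = 0.0284). Cfap126 and Pcp4l1 had log2 fold changes of 0.61 and 1.00 and were not called. In CD4 depletion + anti-CTLA4 against the libraries labelled anti-CTLA4, Tomm40l at 0.76 (limma adjusted p = 0.0423) and Apoa2 at 0.75 (limma adjusted p = 0.0345) were called higher. Of all genes, 22.8% were called higher and 6.59% lower there. The 4 members of the cluster stood at log2 fold changes of 1.25 to 1.75 in the first of these comparisons and of -1.25 to -0.92 in the second.

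**Figure D5:**
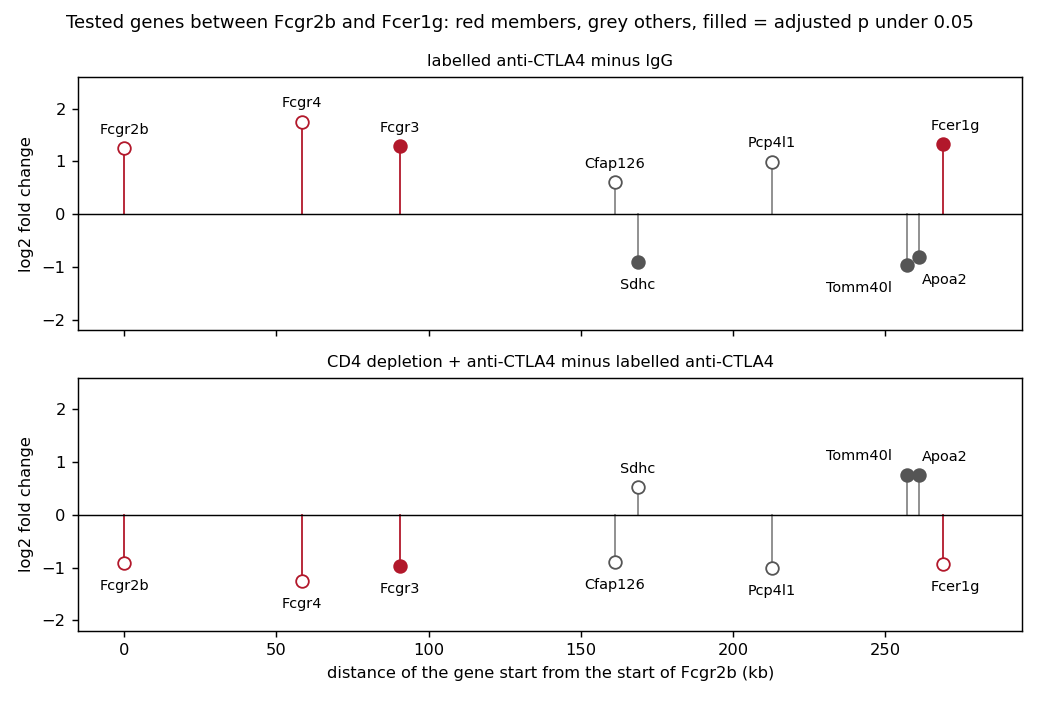
Log2 fold change (vertical axis) of the 9 tested genes between Fcgr2b and Fcer1g against the distance of their starts from that of Fcgr2b (horizontal axis, kb), for the libraries labelled anti-CTLA4 against IgG (top) and CD4 depletion + anti-CTLA4 against those labelled anti-CTLA4 (bottom); members are red, other genes grey, and filled points have an adjusted p under 0.05. Sdhc, Tomm40l and Apoa2 point away from the members in both panels.

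The wider pathway was followed in 5 lists with 95 genes, of which 85 were tested. In the libraries labelled anti-CTLA4 against IgG, 31 were called higher and 9 lower, beside 9.29% and 28.8% of all genes, with a median log2 fold change of 0.52 against -0.31 for all genes tested. The adaptors and effectors of the activating motif held most of these, with 17 of 26 higher and 1 lower. Btk, a kinase downstream of Syk, averaged 21.9 ± 0.195 FPKM in the libraries labelled anti-CTLA4 and 7.92 ± 0.576 FPKM in the IgG libraries (SD, n = 2 each; limma adjusted p = 0.00936). Pik3ap1, an adaptor of phosphoinositide 3-kinase, and Pik3cd, a catalytic subunit of that kinase, rose by log2 fold changes of 1.33 and 1.29 (limma adjusted p = 0.00936 each). Vav3, a guanine nucleotide exchange factor, was the 1 gene of this list called lower.

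Of the 10 Src family kinases and their switches, 4 were called higher and 2 lower in the libraries labelled anti-CTLA4, beside 9.29% and 28.8% of all genes. Lyn, a kinase that phosphorylates both kinds of motif, averaged 126.2 ± 22.9 FPKM in the libraries labelled anti-CTLA4 and 59.1 ± 1.27 FPKM in the IgG libraries (SD, n = 2 each), a log2 fold change of 1.07 (limma adjusted p = 0.0117). Fyn, which oligodendrocyte lineage cells also express, averaged 14.5 ± 6.99 FPKM in the libraries labelled anti-CTLA4 and 96.6 ± 18.3 FPKM in the IgG libraries, a log2 fold change of -2.72 (limma adjusted p = 0.00995), and Yes1 fell by 1.09 on the log2 scale (limma adjusted p = 0.0106). The markers of oligodendrocyte precursor-like and tumour cells given above were lower in the same libraries, and their part in these values was not tested. Of the 17 inhibitory phosphatases, adaptors and ligases, 2 were called higher and 3 lower, beside the same 9.29% and 28.8% of all genes. Ptpn6, the phosphatase SHP-1, averaged 165.5 ± 6.52 FPKM in the libraries labelled anti-CTLA4 and 60.6 ± 9.40 FPKM in the IgG libraries, a log2 fold change of 1.44 (limma adjusted p = 0.00954), and the inhibitory adaptor Dok1 rose by 1.005 on the log2 scale (limma adjusted p = 0.0106). Ptpn11, or SHP-2, a relative of Ptpn6, fell by 0.89 (limma adjusted p = 0.016).

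Of the 27 genes for the actin and membrane machinery of the phagocytic cup, 6 were called higher and 3 lower, beside 9.29% and 28.8% of all genes. Among them were Myo1f, a myosin of myeloid cells, at a log2 fold change of 1.43 (limma adjusted p = 0.00995), Myo10, a filopodial myosin, at -1.85 (limma adjusted p = 0.0125) and the lipid kinase Pip5k1a at -1.006 (limma adjusted p = 0.00936). Among the other Fc receptors, 8 of 13 genes did not pass the filter on low values, and 2 of the 5 tested were called higher. These were Fcgrt, the neonatal Fc receptor, at 67.9 ± 8.69 FPKM in the libraries labelled anti-CTLA4 and 34.2 ± 8.52 FPKM in the IgG libraries (SD, n = 2 each; limma adjusted p = 0.0216), and Trim21, a cytosolic Fc receptor, with a log2 fold change of 0.75 (limma adjusted p = 0.0496). After rescaling to the microglial markers, 0 pathway genes were called higher and 14 lower, beside 0.508% of all genes called higher and 47.6% called lower on the same scaling, which moved the median of all genes to -1.02.

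In CD4 depletion + anti-CTLA4 against the libraries labelled anti-CTLA4, 7 of the 85 pathway genes were called higher and 23 lower, beside 22.8% and 6.59% of all genes, with a median log2 fold change of -0.36 against 0.27 for all genes tested. The adaptors and effectors had 11 of 26 lower and 1 higher. Pik3ap1 averaged 31.7 ± 2.88 FPKM in the CD4 depletion + anti-CTLA4 libraries (SD, n = 3) and 73.0 ± 7.26 FPKM in those labelled anti-CTLA4 (SD, n = 2; limma adjusted p = 0.012), and the kinase Tec fell by 1.06 on the log2 scale (limma adjusted p = 0.013). Vav3 averaged 11.96 ± 3.05 FPKM in the CD4 depletion + anti-CTLA4 libraries and 2.24 ± 0.865 FPKM in those labelled anti-CTLA4 and was called higher (limma adjusted p = 0.0114). Of the Src family list 3 were lower and 2 higher, with Lyn at a log2 fold change of -0.81 (limma adjusted p = 0.0221) and Fyn at 1.81 (limma adjusted p = 0.0205). The oligodendrocyte precursor-like and tumour marker sum given above was higher in the same libraries, and their part in Fyn's value was not tested. Of the inhibitory list 2 were lower and 1 higher, with Ptpn6 at -0.89 (limma adjusted p = 0.0218), Dok1 at -0.73 (limma adjusted p = 0.0201) and Ptpn11 at 0.60 (limma adjusted p = 0.0459). Of the phagocytic cup genes 5 were lower and 3 higher, among them Myo1f at -1.04 (limma adjusted p = 0.0172), Was, an actin nucleation promoter of blood cells, at -0.84 (limma adjusted p = 0.0307) and Pip5k1a at 0.99 (limma adjusted p = 0.012). Both Trim21, at -1.17 (limma adjusted p = 0.016), and Fcgrt, at -0.87 (limma adjusted p = 0.0297), were called lower among the 5 tested other Fc receptors. After rescaling to the microglial markers 15 pathway genes were called higher and 0 lower, beside 55.6% of all genes called higher and 0.63% called lower on the same scaling. In CD4 depletion + anti-CTLA4 against IgG, limma called 0 of the 85 pathway genes, whose median log2 fold change was 0.17, and 0% of all genes. Of the 85, 7 had an unadjusted p under 0.05, beside 6.53% of all genes.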

How the data were processed

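Per the submitters' processing notes the tools included STAR and HOMER, with build mm10 and no versions given. The deposited FPKM values were counted by HOMER over exons, per the file headers, with 1 entry per gene and reads of both strands counted together. The deposited table also held a transcript length column, which was used to check depth: over transcripts of 200 to 800 nucleotides, 100% of the low values implied whole reads within 0.1, up to 20 reads. No count test was run. Values were analysed as log2(FPKM + 1), so fold changes understate low genes, with limma 3.58.1 in R 4.3.3, a mean-variance trend and a spread shared by 3 groups. The filter of at least 1 FPKM in at least 2 libraries kept 13028 genes and all 7 members. Tests were two-sided with Benjamini-Hochberg adjustment over all tested genes. Exact permutation tests could not go below 0.333 (2 libraries against 2) or 0.1 (3 against 2) and were not used. Named pathway genes are the up to 3 with the smallest p per list and comparison among those called, of which 1 is not reported here. Members, lists and markers were chosen with earlier results of these data known. Sequences are RefSeq and GENCODE reference sequence. The procedure was tested on simulated data with independent noise of the same size in every library. Those data held no library that stood apart, so that test does not measure how reliable the calls here are.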

Additional observations from a re-analysis of the deposited data

How the results depend on the processing

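In anti-CTLA4 against IgG, 4 members were called, and 3 to 5 under other pseudocounts, filters, no trend, median-of-ratios scaling and quantile normalization. The count was 7 with the 2 groups alone, 0 after scaling to the microglial markers and 0 to 6 with 1 library left out. In CD4 depletion + anti-CTLA4 against anti-CTLA4 it was 3, with 0 after that scaling and 0 to 7 with 1 library left out. The pathway counts of 40 and 30 became 14 and 15 after that scaling and ranged over 0 to 49 and 0 to 40 with 1 library left out. The second was 18 without a filter and 19 with the 2 groups alone. Scaling moved the higher and lower calls over all genes in anti-CTLA4 against IgG, which were 1210 and 3747, to 2167 and 2048 with median-of-ratios, to 1928 and 2081 with quantile normalization and to 67 and 6280 with the microglial markers, where the median log2 fold change of all genes was 0.00, -0.01 and -1.02 in place of -0.31. In CD4 depletion + anti-CTLA4 against anti-CTLA4 the calls of 2969 and 858 became 1462 and 1685, 1452 and 1460, and 7332 and 83. The cause of these shifts was not tested. After scaling to the microglial markers the log2 fold change turned to -0.061 for Syk in anti-CTLA4 against IgG, and to 0.045 for Fcgr3, 0.15 for Inpp5d, 0.093 for Fcgr2b, 0.085 for Fcer1g and 0.39 for Syk in CD4 depletion + anti-CTLA4 against anti-CTLA4. In CD4 depletion + anti-CTLA4 against IgG, no member or pathway gene was called by limma under any alternative, with 0 members at an unadjusted p under 0.05 in each, and with 1 library left out the log2 fold change ranged from -0.129 to 0.727 for Fcgr2b and from -0.281 to 1.293 for Fcgr4, below 0 without the first CD4 depletion + anti-CTLA4 library and without the first IgG library. An alternative chosen after seeing the data joined that scaling with leaving out the first CD4 depletion + anti-CTLA4 library. In anti-CTLA4 against IgG it called 0 members and 23 pathway genes, all lower, beside 65.6% of all genes called lower and 1.45% higher. Syk was at -0.061 there. In CD4 depletion + anti-CTLA4 against anti-CTLA4 it called 1 member lower and 14 pathway genes, all higher. Of all genes, 49.8% were called higher and 1.5% lower there. These pathway directions are the reverse of most calls on the deposited scaling. In CD4 depletion + anti-CTLA4 against IgG it gave -0.25 for Fcgr1, -0.39 for Fcgr2b, -0.19 for Fcgr3, -0.38 for Fcgr4, -0.18 for Fcer1g, -0.18 for Syk and -0.064 for Inpp5d. The difference in log2 ratio of Fcgr3 to Fcgr2b was -0.37 and 0.43 under quantile normalization, in place of 0.05 and -0.05.

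Deviations from the group means of libraries with the same replicate number correlated at 0.078 and 0.123 between CD4 depletion + anti-CTLA4 and anti-CTLA4. The correlations were -0.181 and -0.205 between CD4 depletion + anti-CTLA4 and IgG, and -0.125 between anti-CTLA4 and IgG. In a group of 2 the deviations are equal and opposite, so the last value is the same for both numbers. These correlations cannot settle whether libraries of the same number were paired. With the replicate number as a block, 2 members and 24 pathway genes were called in anti-CTLA4 against IgG, and 0 and 0 in CD4 depletion + anti-CTLA4 against anti-CTLA4, where 3 members had an unadjusted p under 0.05. A crossed pairing of the 2 groups in anti-CTLA4 against IgG, chosen after seeing the data, called 7 members higher. It called 37 pathway genes higher and 8 lower, beside 11.3% and 28.6% of all genes.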
